A study of Ovis aries with 6 samples.

Results

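T and cytotoxic lymphocytes are a small immune population of the Hu sheep ovary, and 1430 of their barcodes were found among 38465 barcodes that passed the limits on depth and mitochondrial RNA, of 52290 deposited. The libraries came from ovarian tissue of 1 side of each of 6 ewes in oestrus, 3 of the highly reproductive group (HLS, litter size of at least 3) and 3 of the lowly reproductive group (LLS, litter size under 2), and the labels name no age, treatment or genotype for them. Each tissue was digested with enzymes and sequenced as 1 droplet library, in which a barcode marks a single droplet and a unique molecular identifier (UMI) marks 1 captured RNA molecule. No cells were sorted, so lymphocytes of the tissue and of the blood in its vessels cannot be told apart.

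A barcode was counted as a lymphocyte when it had at least 1000 UMI, at most 10% mitochondrial UMI, and at least 3 of 7 genes detected (CD3E, CD3G, GNLY, XCL1, CTSW, CD52 and PTPRC), among them CD3E, CD3G, GNLY or XCL1. It also had at most 2 UMI of the complement genes C1QA, C1QB and C1QC together, at most 2 UMI of the endothelial genes PECAM1 and KDR together, and none of the B cell receptor genes CD79A and CD79B. The members were thus chosen by the measured UMI of these genes, whose levels are a description of the choice and were not tested between cell types or groups. For comparison, barcodes of a macrophage gate (C1Q sum of at least 10 UMI, 257 barcodes), a B lineage gate (CD79A and CD79B sum of at least 2 UMI, 146 barcodes) and a stromal gate (DCN of at least 10 UMI, 9439 barcodes) were taken from the same libraries. The stromal gate had no limit on lymphocyte genes, and its lymphocyte transcripts are given as a measure of background, which can hold free RNA and doublets (315 of its barcodes resembled simulated doublets).

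T lymphocytes recognise antigen through a receptor of 2 variable chains that signals through the CD3 chains, whereas natural killer (NK) cells and other innate lymphocytes lack this receptor and read their targets through germline-encoded receptors, many of them C-type lectins. Both kinds can kill with granules of perforin, granzymes and granulysin, and both release chemokines such as XCL1 and CCL5. In the mammalian ovary lymphocytes are found in the stroma, around follicles and in the corpus luteum, where they come and go with ovulation and luteal regression.

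Levels are given as UMI per 1000000 UMI summed over the barcodes of an ewe (CPM). The chemistry counts a molecule once from its 3′ end, so these levels were not divided by gene length. HLS replicates 1, 2 and 3 (HLS1, HLS2 and HLS3) held 126, 174 and 435 lymphocytes, and LLS replicates 1, 2 and 3 (LLS1, LLS2 and LLS3) held 205, 289 and 201. The sums held 522545, 484430 and 1505394 UMI in HLS and 560561, 811031 and 475271 UMI in LLS, so HLS3 was measured most precisely. The median lymphocyte had 2506 UMI, against 7808 in the stromal gate. No lymphocyte barcode sequence occurred among the lymphocytes of another library, although 156 sequences were shared between libraries among all barcodes past the limits and 11 lymphocyte barcodes shared their sequence with some barcode of another library. HLS1 stood apart from the other libraries: its scaling factor (TMM) was 0.749 against 1.004 to 1.09 in the others, and its mean correlation with the other ewes across the genes tested was 0.912 against 0.929 to 0.940.

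Of the 1430 lymphocytes, 324 had exactly 3 of the 7 genes and 14 had all 7. Just outside the limit, 140 barcodes had exactly 2 of them. In pooled UMI, barcodes with exactly 3 genes carried CD3D at 106 CPM and COL1A1 at 1134, whereas barcodes with exactly 2 carried CD3D at 27.7 and COL1A1 at 2641. The limits on other cell types left 1430 of 1616 barcodes. At these limits, 35 members had exactly 2 UMI of PECAM1 and KDR and 14 barcodes with exactly 3 were left out, while 84 barcodes were left out for a single UMI of CD79A or CD79B.

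CD3E and CD3G, chains that carry the antigen signal into the cell and genes of the choice, varied less between ewes than GNLY (below). CD3E stood at 804, 1115 and 1038 CPM in HLS and at 1111, 1039 and 844 in LLS. CD3G stood at 561, 590 and 388 in HLS and at 537, 524 and 505 in LLS. The ewes of both groups overlapped for either gene. CD3G was detected in 60.2% of the lymphocytes of HLS3, the lowest share, and in 87.3% of those of HLS1, the highest. A UMI of CD3E was found in 85.3% of lymphocytes and in 1.40% of stromal barcodes, and in 62.7% and 0.159% after each barcode was thinned to 1000 UMI. CD52, a small surface glycoprotein of leukocytes, averaged 1575 CPM, and PTPRC, the leukocyte phosphatase CD45, averaged 872.

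GNLY, which encodes the pore-forming granule protein granulysin, was by contrast the most uneven gene of the choice. It was at 59.3, 3860 and 573 CPM in HLS1, HLS2 and HLS3 and at 970, 297 and 2249 in LLS1, LLS2 and LLS3. Each group held both low and high ewes. Only 11.5% of lymphocytes held a UMI of GNLY, against 0.604% of stromal barcodes, so few barcodes with many molecules set its level. XCL1, a chemokine that attracts cross-presenting dendritic cells, ranged from 235 to 695.5 CPM, and CTSW, a granule-associated cathepsin of T and NK cells, from 536 to 838.

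**Figure D1:**
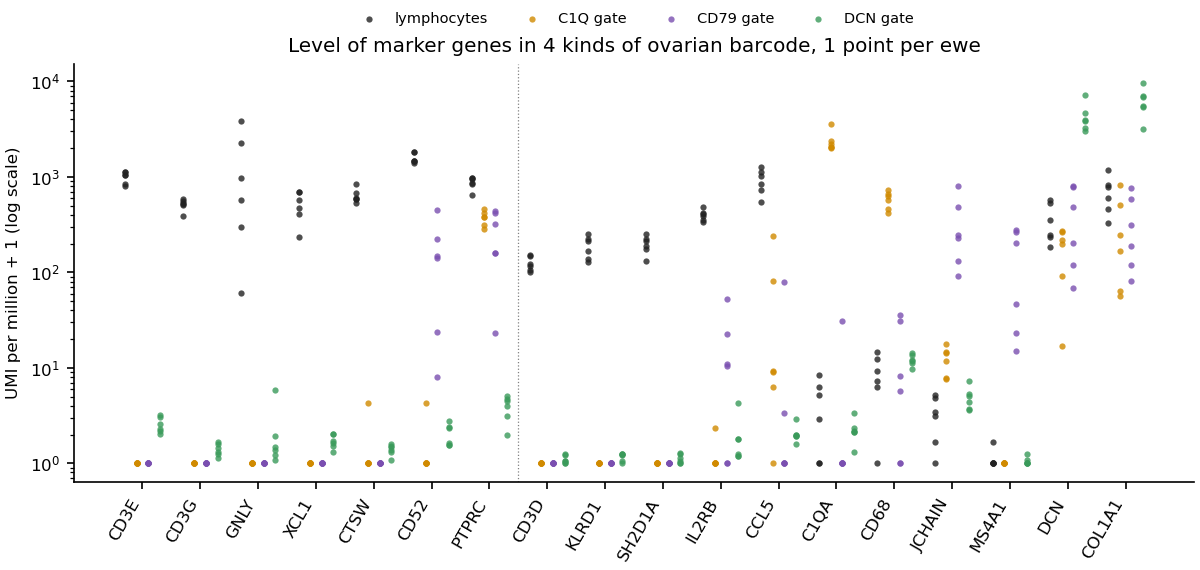
Level of 18 marker genes in lymphocytes, the macrophage (C1Q) gate, the B lineage (CD79) gate and the stromal (DCN) gate, as CPM (UMI per 1000000 UMI) plus 1 on a log axis, with 1 point per ewe and gate (6 ewes). Genes left of the dotted line chose the lymphocytes; CD3D, KLRD1 and SH2D1A, which did not, lie above 100 in every ewe and at or near 0 in the other gates, whereas GNLY spreads from 59.3 to 3860.

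Genes that the choice did not use marked the same barcodes. Of 2571 such genes at 50 CPM or more in lymphocytes, 133 (5.17%) were at least 2-fold over the highest of the 3 other gates and higher in 6 of 6 ewes. This count is a description, since the gates were drawn from the same counts. With the genes of the choice set aside, the largest folds belonged to LOC114109030, KLRK1 (listed as LOC101116896), SH2D1A, LOC101106528, KLRD1, LOC101122689, CD3D, CD96, LOC105613002, GZMM, LOC101120322, LOC101105810, RHEX, CCR8 and LOC101102142. SH2D1A, the adaptor of the SLAM receptors, averaged 196 CPM and was at 0 in the macrophage and B lineage gates and at 0.119 in the stromal gate. KLRD1, a lectin-like receptor subunit (CD94), averaged 186, and KLRK1, the activating receptor NKG2D, averaged 265.5. CD96, a receptor for nectin-like ligands, averaged 118, and GZMM, granzyme M, averaged 89.7.

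CCR8, a chemokine receptor of skin-homing and regulatory T cells, was at 110 CPM. RHEX, named for a role in erythroid expansion, was at 85.05 and was found in 8.18% of lymphocytes, against 0.0318% of stromal barcodes.

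Several of these leading genes have no symbol in RefSeq, and their neighbours place them. LOC114109030 (770 CPM in lymphocytes, 0.456 in the stromal gate) is the most abundant of 4 detected genes between the mast cell protease gene MCP-3 and STXBP6, which together reached 897. It was at 522, 1282 and 675 in HLS and at 920.5, 450 and 768 in LLS, without separation of the groups. LOC105613002 (215) lies between KLRK1 and GABARAPL1. Together, KLRK1 and 7 genes without symbols that flank it, from MAGOHB to GABARAPL1, summed to 545, 985 and 700.1 in HLS and to 505, 746 and 884 in LLS, against 1.31 in the stromal gate. LOC101105810 and LOC101102142 lie among the GIMAP genes and LOC101122689 among receptor genes, both described below. The deposited files list no GZMB, GZMH, KLRB1 or KLRC1 under those symbols, and these genes were not analysed here.

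RefSeq (assembly ARS-UI_Ramb_v3.0) gives the type C_region, the constant part of an antigen receptor, to 3 genes between PRSS2 and EPHB6 (LOC101120322, LOC101107504 and LOC105613374), to 1 between DAD1 and SALL2 (LOC101110848) and to 1 between AMPH and LSM8 (LOC101123370). The 3 genes near EPHB6 summed to 1426 CPM in lymphocytes, 26.3 in the B lineage gate, 3.26 in the macrophage gate and 0.826 in the stromal gate. At least 1 of them was detected in 89.4% of lymphocytes and in 0.636% of stromal barcodes. The gene near DAD1 was detected in 41.0% of lymphocytes and averaged 233 CPM. LOC101106528, a coding gene in the same interval, was detected in 28.4% and averaged 470. At least 1 of 3 genes between AMPH and LSM8 was detected in 44.6%, and their sum averaged 486.5. Only 3.29% of lymphocytes had no UMI from any of these loci, against 98.5% of stromal barcodes. Genes of such families resemble each other, and the counts per gene are uncertain where reads fit more than 1 copy.

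Of 24 listed genes of the T cell receptor complex and its signalling, 22 were in the files and all 22 averaged at least 10 CPM. Beside CD3E and CD3G, the most abundant were SKAP1 (333), FYN (139), CD3D (124) and LCP2 (113), which are adaptors, a kinase and a CD3 chain that relay the receptor signal. Outside the choice, 15 of them averaged 50 CPM or more, and 11 of the 15 were at least 2-fold over every other gate in 6 of 6 ewes, beside 5.17% of all genes at that level. The level was required in lymphocytes themselves, so nothing is read from this count. The coreceptors CD4 (62.5 ± 22.8, SD, n = 6), CD8A (74.4 ± 19.5) and CD8B (98.3 ± 35.6) were at similar levels. A UMI of CD4 was present in 13.1% of lymphocytes, of CD8A in 15.2% and of CD8B in 19.0%, so most barcodes showed none of the 3 at a median of 2506 UMI. In the stromal gate, with a median of 7808 UMI, the shares were 0.0953%, 0.360% and 8.32%, so that CD8B was the least specific of them. These 3 genes were chosen for the text after their values were seen.

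By mean level, granulysin and SRGN, the proteoglycan that packs granule proteins, came first among the granule genes. GNLY, a gene of the choice, averaged 1335 CPM but ranged from 59.3 to 3860, so its place differed between ewes. SRGN averaged 1214 CPM, followed by CTSW (635), NKG7 (251.5, a regulator of granule release), GZMM (89.7) and the death ligand TNFSF10 (87.5). All 14 listed members in the files averaged at least 10. Perforin, PRF1, averaged 49.0, and GZMA and GZMK, common granzymes of killer cells, averaged 13.1 and 12.1. These 3 were also chosen after their values were seen. The list summed to 3976 in lymphocytes, 1232 in the macrophage gate, 612 in the B lineage gate and 69.4 in the stromal gate, and GNLY and CTSW, which chose the members, are part of these sums.

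Among NK receptors and adaptors, IL2RB, the shared receptor chain for IL-2 and IL-15, led with 396 CPM. HCST, the signalling partner of NKG2D, averaged 331, NCR3 (an activating receptor) 175 and FCER1G (a signalling chain) 112. NCR1, the receptor most used to define NK cells, was at 1.66, with 7 UMI over all 6 ewes. KLRF1 was at 16.4. The list summed to 1617 in lymphocytes, below 3405 in the macrophage gate and above 670 in the B lineage gate and 19.3 in the stromal gate.

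Of 18 listed cytokines and chemokines in the files, 10 averaged at least 10 CPM. Their sum, which includes XCL1 of the choice, was 2109 in lymphocytes and 4069 in the macrophage gate. It was 502 in the B lineage gate and 26.9 in the stromal gate. CCL5, which draws T cells and monocytes, averaged 915 and XCL1 513. LTB, needed for lymphoid tissue, averaged 299, TNF 110 and TGFB1 93.05. CXCL8, a neutrophil attractant, averaged 71.9, but was at 301 in LLS3 and at 7.65 to 53.7 in the other 5 ewes. IFNG averaged 31.7 and was chosen after its value was seen. IL13 had no UMI, where 3 UMI would be 1.99 to 6.31 CPM depending on the ewe.

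Homing and residency genes covered a wide range of levels. RGS1, a brake on chemokine receptor signalling, averaged 702 CPM and CD69, which retains lymphocytes in tissue, 545. CD69 was at 8.03 in the macrophage gate and 0.584 in the stromal gate. The B lineage gate held more of it, since it ranked below the 60 genes of largest fold over the highest gate (9.83 or more). Integrins ITGB1 and ITGA4 averaged 418 and 170, KLF2 324 and the chemokine receptor CXCR4 152. CCR7, which guides naive cells into lymph nodes, averaged 23.4 and was chosen after its value was seen. IL7R, the receptor for the survival cytokine IL-7, averaged 450, with SATB1 at 158 and LEF1 at 58.2.

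Of 21 transcription factors, 20 averaged at least 10 CPM. ETS1 led with 851, ahead of ID2 (532), RORA (370), RUNX3 (196), GATA3 (186) and NFIL3 (168). RORA, a factor of IL-17-producing and innate lymphoid cells, was at 166, 242 and 485 in HLS and at 637, 306 and 385 in LLS. HLS1 was the lowest ewe for ETS1 (442 against 852 to 978 in the others) and for RORA. FOXP3, the factor of regulatory T cells, averaged 5.41, and its target CTLA4 10.3, while IKZF2 (128), TNFRSF18 (97.1) and IL2RA (92.2) of the same list were more abundant and are not limited to regulatory cells.

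Among genes that all cells use, B2M, the light chain of MHC class I, averaged 3935 CPM in lymphocytes, against 2855 in the macrophage gate, 1928 in the B lineage gate and 396 in the stromal gate. The immunoproteasome subunits PSMB9 and PSMB8 averaged 438 and 430. The glucose transporter SLC2A3 averaged 607, LDHA 255 and ENO1 245. The survival genes BIRC3 and MCL1 averaged 663 and 582. Of 13 listed hormone and growth factor receptors in the files, 6 averaged at least 10, led by the glucocorticoid receptor NR3C1 (128), the prostaglandin E2 receptor PTGER4 (69.8) and TGFBR2 (54.9). The oestrogen receptor ESR1 was at 5.49, the progesterone receptor PGR at 3.51, and OXTR had no UMI. Interferon-induced genes were led by IFI6 (164), which was at 41.3 to 208 in the other 5 ewes and at 371 in LLS2, with IRF1 at 152. Cell cycle genes were led by HMGB2 (283) and TUBB (279). TOP2A, a marker of dividing cells, was at 77.3 and ranged from 5.74 in HLS1 to 211 in HLS2. The iron store FTH1 averaged 296, against 4155 in the macrophage gate.

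Heat shock and immediate early genes, which respond within minutes to stress and to tissue handling, summed to 27190 to 36440 CPM over the 6 ewes. HSP90AA1 averaged 8384, JUND 3779, HSPA8 3213, HSPA1A 2826, DNAJB1 2791 and FOS 2590. The same list averaged 42010 in the macrophage gate and 27800 in the stromal gate, so it was high outside lymphocytes too. HSPA1A was at 5787 in HLS1 and at 1562 to 3318 in the other 5 ewes.

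Markers of other cell types differed in level. Of 8 macrophage markers in the files, none averaged 10 CPM, CD14 had no UMI, and the sum was 25.1 against 9549 in the macrophage gate, a contrast that the limits on the C1Q genes fix in part. Of 8 B lineage markers, CD79A and CD79B were at 0 by the choice, PAX5 had no UMI and the sum was 2.88 against 1370 in the B lineage gate. Dendritic markers summed to 3.96, with FLT3 at 0, mast markers to 22.2, with CPA3 and HDC at 0, and neutrophil markers to 20.3, with 60.65 in LLS1 and 46.3 in LLS3. Of the endothelial markers the sum was 123, led by PECAM1 (48.5), which the choice limited. Perivascular markers summed to 176, 198 and 234 in HLS and to 376, 208 and 396 in LLS, led by ACTA2 (186), against 1425 in the stromal gate. Stromal markers were the most abundant of these lists. All 5 averaged at least 10, led by COL1A1 (697), and their sum was 1097, 1406 and 2528 in HLS and 1265, 1282 and 1578 in LLS, against 15020 in the stromal gate. Most of the theca and luteal sum of 133 was oxytocin, OXT, which was at 696 in LLS3 and at 2.47 to 6.64 in the other 5 ewes, with CYP17A1 at 9.29. The granulosa sum was 26.4, with CYP19 at 0. The part of such RNA in the values below was not tested, except by leaving out the barcodes that carried most stromal genes.

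Neither CD3E nor CD3G was detected in 139 of the 1430 lymphocytes. These CD3-undetected barcodes were not shallower than the rest: their median was 3065 UMI against 2454. In the 5 ewes with at least 10 of them (HLS1 held 4), their levels were set beside those of the CD3-detected barcodes, as a description with no test. Of 17 listed NK receptors and adaptors in the files, 5 were higher in them in 5 of 5 ewes (KLRD1, KLRF1, FCGR3A, FCER1G and IL2RB), CD7 was lower in 5 of 5 (34.6 against 67.05 CPM) and 11 were neither, among them NCR1, NCR3, CD96 (104 against 127) and SLAMF7. Of all 7652 genes at 10 CPM or more in lymphocytes, 4.36% were higher and 7% lower in 5 of 5 ewes. At that level the list held 14 genes, with the same 5 higher and 1 lower. Higher in 5 of 5 ewes were KLRF1, an activating lectin-like receptor, at 154 against 0.625, KLRD1 at 452 against 139, KLRK1 at 686 against 222, FCER1G at 481.5 against 68.6 and EOMES, a factor of NK and memory killer cells, at 150 against 32.6. LOC105614844, which lies between MAGOHB and KLRK1, was at 518 against 5.40. LOC114113674 and LOC105613001 of that interval, and LOC105613002 beyond KLRK1, were higher in 5 of 5 ewes too. Other genes of the interval were not. LOC114113672 was at 12.2 against 32.2 and LOC101104216 at 29.1 against 49.2, lower in 4 and 3 of 5 ewes. LOC101123288 was at 23.05 against 20.8, higher in 3 of 5. The chemokine CCL5 (1968 against 796) and IL2RB (879 against 349) were higher in 5 of 5 ewes as well. High levels of KLRD1, FCER1G, CCL5 and IL2RB were not limited to CD3-undetected barcodes, since sub-cluster 4 (below), with CD3E detected in most barcodes, had them too. Of 20 listed transcription factors at 10 CPM or more, 2 were higher in 5 of 5 ewes, EOMES among them, and 4 were lower. The factor TBX21 was at 55.9 against 50.6, higher in 2 of 5 ewes. A barcode without CD3E and CD3G could enter only with XCL1 or GNLY, so their levels in it (XCL1 at 2068 against 351, GNLY at 2787 against 1479) follow from the choice.

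Of 22 listed genes of the T cell receptor complex and its signalling, 18 were lower in the CD3-undetected barcodes in 5 of 5 ewes, CD3E and CD3G by the split itself, and none was higher in 5 of 5. All 22 were at 10 CPM or more, where 7% of all genes were lower in 5 of 5. The choice and the split used CD3 genes of the same barcodes, so no test was made. Among T cell genes lower in 5 of 5 ewes was the CD3 chain CD3D (16.02 against 142), which the split did not use. CD4 had no UMI against 68.1, CD28, the main costimulatory receptor, was at 0.888 against 82.3, ICOS at 2.22 against 93.1, and the T lineage factor BCL11B at 10.01 against 134. CD5 (25.7 against 118.5), CD6 (6.555 against 58.1) and CD2 (25.9 against 123) went the same way. Detection of the constant regions near EPHB6 did not separate the barcodes so sharply, with 82.7% of CD3-undetected and 90.1% of CD3-detected barcodes positive and sums of 647 and 1520 CPM over the 6 ewes. The constant region near DAD1 did, with 13.7% against 43.9%. LOC101106528 ran the other way, with 67.6% against 24.2%. Markers of other cell types moved with the split too. Of the mast markers, MS4A2 (57.6 against 0) and KIT (47.1 against 11.3) were each higher in 4 of 5 ewes, whereas CPA3 and HDC had no UMI. COL1A1 averaged 1925 against 612 and ACTA2 785 against 125, each higher in 2 of 5 ewes, MCAM 194 against 44.6 (5 of 5) and PECAM1 90.85 against 43.7 (4 of 5). The part of such RNA in these differences was not tested.

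**Figure D2:**
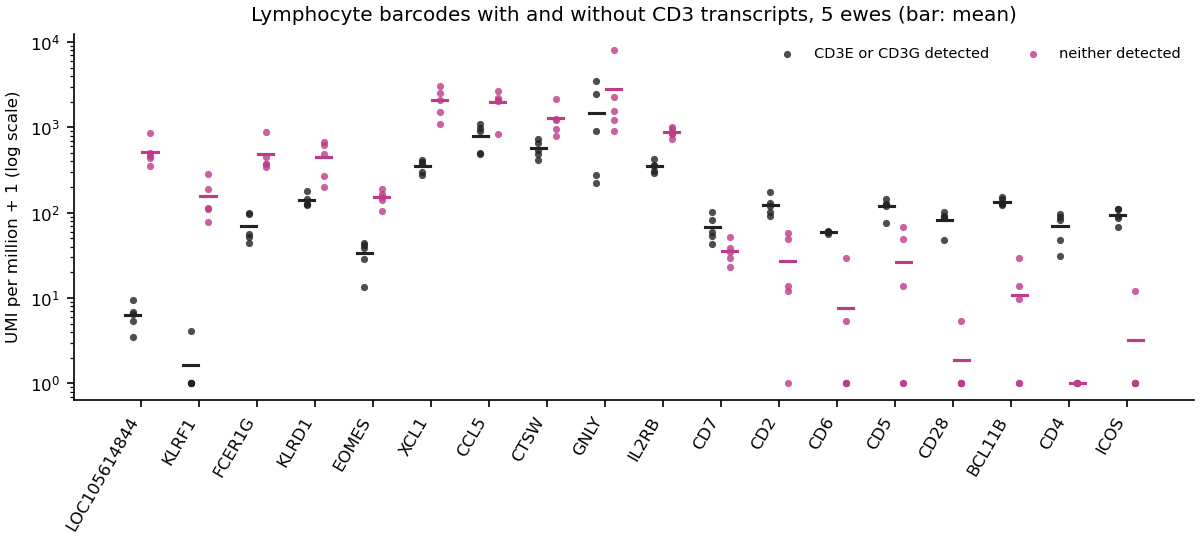
Levels of 18 genes in lymphocyte barcodes with CD3E or CD3G detected (black) and with neither detected (pink), as CPM plus 1 on a log axis; points are the 5 ewes with at least 10 CD3-undetected barcodes and bars their means. KLRF1 lies near 0 beside 154, and CD4, CD28 and ICOS show the opposite order.

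Clustering of the lymphocytes alone (Leiden, resolution 0.6) gave 11 sub-clusters of 334 to 16 barcodes. They are described by their leading genes, as mean UMI per 10000 UMI of a barcode, inside against outside the sub-cluster. No value was tested, since the same genes drew the groups. Sub-cluster 1 (334 barcodes) was led by CD40LG, the helper T cell signal to B cells (1.04 against 0.213), with CD28 (1.905 against 0.480), SLC1A2 and P2RY8. The constant region near DAD1 was found in 52.1% of its barcodes and LOC101106528 in 9.88%. It made up 38.9% of the lymphocytes of HLS3, and 8.05% to 20.98% in the other ewes.

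Sub-cluster 2 (258 barcodes) was led by the cochaperone BAG3 (21.05 against 7.495), CD4 (1.49 against 0.534), HSPA6 (56.6 against 22.6) and HSPA1A (51.6 against 21.05). It held 50% of the lymphocytes of HLS1 and 1.61% of those of HLS3, with 18.7% to 30.2% in the other 4 ewes. HLS1 was also the ewe with the highest HSPA1A level over all lymphocytes. Centring each gene within its ewe put 213 of the 258 barcodes of sub-cluster 2 into a group of 513. That group also took 158 of 229 barcodes of sub-cluster 3 and 62 of 63 of sub-cluster 7. Without centring, at a resolution of 0.3, a group of 499 held 230, 199 and 63 barcodes of sub-clusters 2, 3 and 7. At that resolution the 29 barcodes of sub-cluster 9 were in a group of 56, and centring within ewes put all 29 in a group of 52.

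Sub-cluster 3 (229 barcodes) was led by GNLY (92.0 against 2.93), LOC101108034, LOC101113279 and LOC114109111 (all between MCP-3 and STXBP6), GZMK (0.572 against 0.0685) and GZMA (0.567 against 0.0746). CD8B was at 3.49 against 0.783, just past the 10 leading genes. LOC101114285 and LOC101114535, which lie between HEATR6 and the chemokine gene CCL16, were at 34.6 against 2.78 and at 9.01 against 0.557. A CD3E UMI was present in 89.5% of its barcodes. GNLY, a gene of the choice, was found in 39.3% of them, GZMK in 8.73% and GZMA in 9.17%, so each of these 3 was undetected in most.

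Sub-cluster 4 (189 barcodes) was led by genes without symbols in receptor loci: LOC101103878, between FCAR and LAIR1 (2.75 against 0.0340), and LOC101104216, LOC101123288 and LOC114113672, between MAGOHB and KLRK1. LOC101122122, the neighbour of XCL1, was at 6.48 against 0.213. CD4 and CD28 were not detected in any of its barcodes, which allows up to 1.59% of barcodes with a UMI at a median of 2302 UMI and does not limit the share of cells that express them. CTSW was found in 93.1%, CCL5 in 89.9% and FCER1G in 61.9%. A CD3E UMI was found in 85.7%. KLRD1 was at 7.549 against 1.442 and IL2RB at 11.36 against 3.204, beside 7.013 and 9.341 in sub-cluster 6 (below). Of 15 NK and innate lymphoid markers in the files, 7 were at least 1.5-fold higher in sub-cluster 4. KLRF1 (0.03852 against 0.2021) and KLRK1 (2.933 against 2.974) were not higher in it. In the stromal gate CTSW was found in 0.413% of barcodes, CCL5 in 0.604% and FCER1G in 1.45%.

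Sub-cluster 5 (130 barcodes) was led by RHEX (6.69 against 0.0703), the cytokines IL17F (2.325 against 0.0451, in 30% of its barcodes) and IL17A (1.24 against 0.0338, in 9.23%), the kinase BLK (1.68 against 0.0403), IL1R1 (2.47 against 0.159) and the factor SOX13 (0.935 against 0.0697). LOC101106528 was at 20.4 against 3.03 and was detected in 90.8% of its barcodes, the genes between AMPH and LSM8 in 93.1%, and the constant region near DAD1 in 10.8%. CD3E was detected in 98.5%. IL17A and IL17F are made by helper, gamma delta and other innate-like T cells. Of the 5 gamma delta T markers in the list used for names, 2 were in the files, which is too few for a name. All 6 ewes contributed between 5.29% and 13.2% of their lymphocytes.

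Sub-cluster 6 (107 barcodes, NK-like) had no UMI of CD3E or CD3G in 103 of 107 barcodes, at a median of 3168 UMI. The constant regions near EPHB6 were nevertheless found in 83.2% of its barcodes and LOC101106528 in 72.0%. Genes between AMPH and LSM8 were found in 34.6% and the constant region near DAD1 in 14.95%. It was led by LOC105614844 (6.10 against 0.0901), KLRF1 (2.21 against 0.0162), LOC114113674, LOC105613001 and C5AR1. MS4A2, a receptor chain best known from mast cells, was also among its leading genes (0.908 against 0). Of 15 NK and innate lymphoid markers in the files, 12 were at least 1.5-fold higher in it, among them XCL1 and CTSW, which the choice used. The others were GNLY, which was lower in it (14.85 against 17.4), NCR3 (2.185 against 1.93) and NKG7 (3.74 against 2.53). XCL1 was found in 93.5% of its barcodes, a share set by the choice, since barcodes without CD3 entered only with XCL1 or GNLY. It made up 1.59%, 4.02% and 11.95% of the lymphocytes of HLS1, HLS2 and HLS3 and 4.88%, 7.61% and 6.97% of those of LLS1, LLS2 and LLS3.

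Sub-cluster 9 (29 barcodes, regulatory T-like) was led by the chemokine CCL20 (7.32 against 0.115), the inhibitory receptor CTLA4 (2.42 against 0.0367), TNFRSF4 (2.43 against 0.0616), FOXP3 (1.41 against 0.0308) and TNFRSF9 (3.66 against 0.242). All 6 regulatory T markers were at least 1.5-fold higher in it. CCR8 was found in 82.8% of its barcodes, against 16.06% of the other lymphocytes and 0.106% of stromal barcodes. In sub-cluster 4 the CCR8 share was 37.6%. HLS3 gave 21 of the 29 barcodes. HLS2 gave none of 174 lymphocytes, which allows up to 1.72%, and LLS1 none of 205, which allows up to 1.46%.

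The remaining sub-clusters were small. Sub-cluster 10 (18 barcodes, cycling-like) was led by PCLAF, MKI67 (9.88 against 0.102), UBE2C, CENPF, BIRC5 and TOP2A, and its median barcode had 7582 UMI. Sub-cluster 11 (16 barcodes) was led by the interferon-induced genes MX2 (5.88 against 0.0296), ISG15 (9.56 against 0.154) and MX1, and LLS2 gave 14 of the 16. Sub-cluster 7 (63 barcodes) was led by RAD54B, DHX57 and SAMHD1 (5.78 against 0.973) and stayed unnamed. Sub-cluster 8 (57 barcodes) went against the label: its leading genes included DCN (24.99 against 1.36), OXT, COL14A1, MYH11 and TIMP2, its median barcode had 7158 UMI, and 37 of its 57 barcodes resembled simulated doublets, of 42 among all lymphocytes. CD3E was found in 80.7% of it. The results between HLS and LLS are given with and without it where that changes a call.

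**Figure D3:**
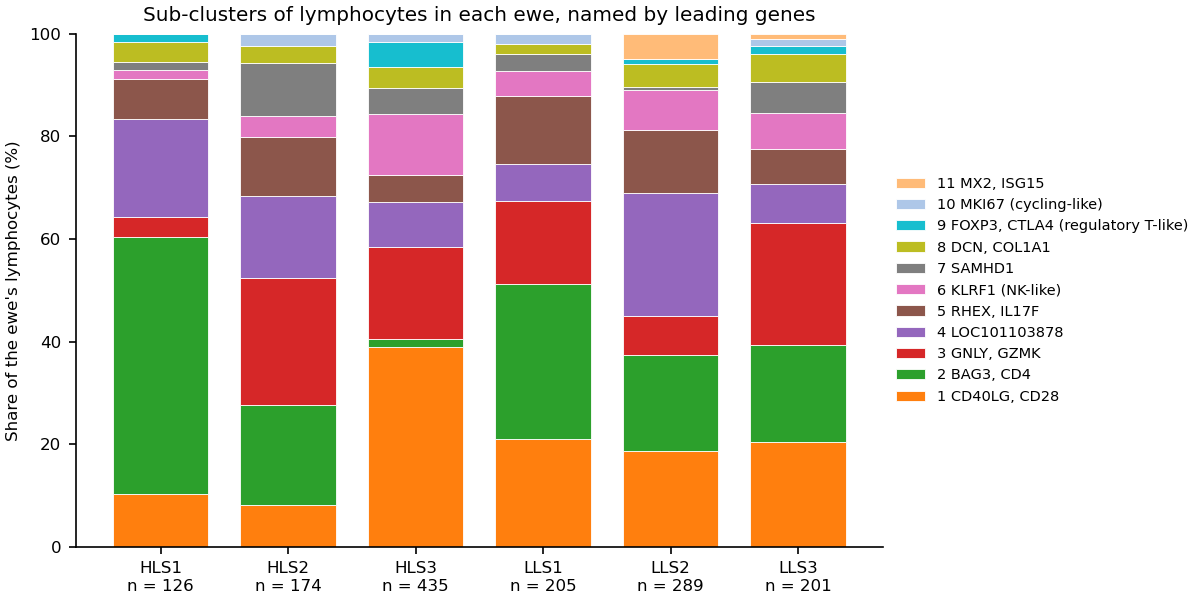
Share of each ewe's lymphocytes in the 11 sub-clusters, named by leading genes, as stacked bars that sum to 100% per ewe. Sub-cluster 2 takes 50% in HLS1 and 1.61% in HLS3, and sub-cluster 1 takes 38.9% in HLS3.

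The study compared ewes of large and small litters, and the first question here is whether their ovaries held different shares of lymphocytes. Lymphocytes made up 2.23%, 2.35% and 7.47% of the barcodes of HLS1, HLS2 and HLS3 and 3.10%, 5.33% and 2.66% of those of LLS1, LLS2 and LLS3. HLS3 was the highest and the other HLS ewes were the lowest of all 6. The mean share was 4.02% ± 2.99 (SD, n = 3) in HLS and 3.70% ± 1.43 (SD, n = 3) in LLS, a difference smaller than the spread within either group (two-sided exact permutation test, P = 1, adjusted P = 1 over 2 shares, where the smallest possible P is 0.1). Without HLS3 the difference, HLS minus LLS, turned from 0.318 to -1.41 percentage points.

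The CD3-undetected share of lymphocytes was 3.17%, 5.75% and 14.3% in HLS and 7.32%, 9.34% and 10.4% in LLS. The HLS ewes lay on both sides of the LLS ewes. The means were 7.72% ± 5.80 and 9.04% ± 1.59 (SD over 3 ewes in each group), and an exact permutation test on both sides gave P = 0.8 (adjusted P = 1). The direction turned from -1.31 to 0.964 percentage points without HLS1, and to 0.501 with at least 4 of 7 genes. The difference was -4.575 without HLS3 and -4.30 with a minimum of 2000 UMI.

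**Figure D4:**
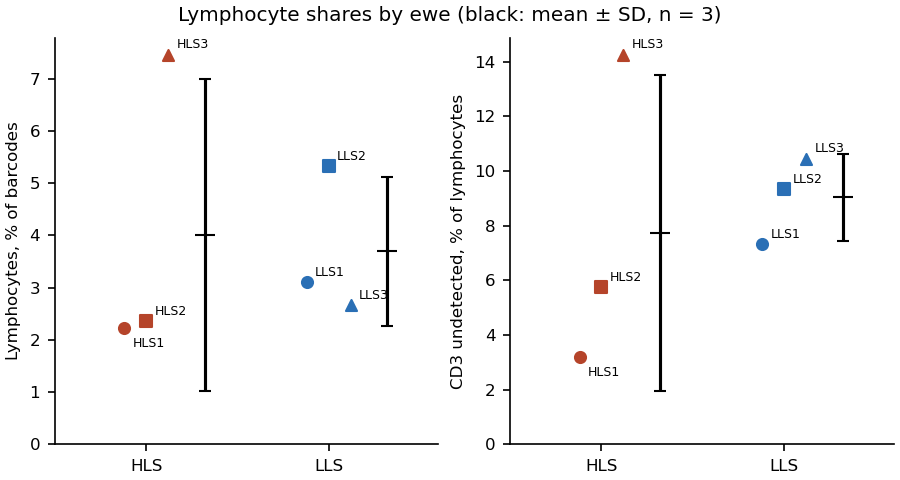
Lymphocytes as a share of barcodes past the limits (left) and CD3-undetected barcodes as a share of lymphocytes (right), in percent; each symbol is 1 ewe and black bars are the mean ± SD of 3 ewes per group. HLS3 lies highest in both panels (7.47% and 14.3%), and the groups overlap.

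The second question is which genes differed inside lymphocytes. UMI were summed per ewe and compared for 5783 genes with edgeR's quasi-likelihood test and Benjamini-Hochberg adjustment. No gene was past an adjusted P of 0.05 in either direction (0% of genes tested). Before adjustment 140 genes (2.42%) had a P under 0.05, 69 higher (1.19%) and 71 lower in HLS (1.23%), and DESeq2 called 3 genes. On simulated sums of the same size, 86% of 4-fold changes and 30% of 2-fold changes were recovered among 5783 genes. Both sizes were simulated together, with 100 changed genes each, and 4 unchanged genes were called in that simulation. Every simulated gene was given the same variation between ewes (coefficient 0.25), which measured genes need not share. After TMM scaling, the 3 ewes of one group all lay above the 3 of the other for 493 genes (8.52%), of which 222 (3.84%) were higher and 271 (4.69%) lower in HLS.

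LOC101123290 came closest to the threshold. It was at 1613, 1881 and 1469 CPM in HLS and at 316, 499 and 246 in LLS, so that every HLS ewe was above every LLS ewe. Its log2 fold change was 2.39 (SE 0.32, edgeR, unadjusted P = 1.05e-05, adjusted P = 0.0606). The direction held in all 18 alternatives, and in 8 of them the adjusted P was under 0.05, among them DESeq2 (1.12e-10), scaling without TMM factors (0.0238) and the sums without sub-cluster 8 (0.0252). The adjusted P was 0.9995 without LLS3 and 0.417 without LLS1, the 2 highest values of the alternatives. At least 1 UMI was found in 87.3%, 88.5% and 76.8% of the lymphocytes of HLS1, HLS2 and HLS3 and in 41.0%, 53.6% and 31.3% of those of LLS1, LLS2 and LLS3. The stromal gate of the same libraries held it at 2.06, 2.03 and 2.12 CPM in HLS and at 0.126, 1.28 and 0.0606 in LLS, where LLS1 and LLS3 held 1 UMI each, so the groups did not overlap in that gate. In the B lineage gate they overlapped, at 44.7, 139 and 0 CPM in HLS and at 14.3, 18.7 and 0 in LLS, with 16 UMI or fewer in each ewe. Its share of stromal barcodes was 0.0604% to 1.67% over the ewes.

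LOC101123290 lies between GIMAP4 and GIMAP6 in RefSeq. GIMAP genes encode GTPases that govern survival of lymphocytes. A second gene of this interval, LOC101114852, was at 597, 675 and 753 CPM in HLS1, HLS2 and HLS3 and at 1.78, 213 and 21.04 in LLS1, LLS2 and LLS3. LLS1 held 1 UMI of it and LLS3 held 10, against 312 to 1134 in the HLS ewes. Its log2 fold change was 3.197 (SE 0.84, edgeR, unadjusted P = 0.00266, adjusted P = 0.9995), and without LLS2 the log2 fold change was 6.07 and the adjusted P 0.00342. Both genes were named by their P, so the following is a description of their locus.

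RefSeq lists 21 coding genes from GIMAP8 up to TMEM176B, and 20 of them were matched in the files. Their sum was 3163, 3875 and 2882 CPM in HLS and 1142, 1244 and 1069 in LLS. Both named genes are part of that sum: the other 18 genes summed to 953, 1319 and 659 CPM in HLS and to 824, 531 and 802 in LLS, and the groups overlapped. The members with a GIMAP symbol did not separate the groups: GIMAP6 was at 63.2, 159 and 87.7 in HLS and at 92.8, 78.9 and 96.8 in LLS, GIMAP1 at 159, 215 and 151 against 164, 90.0 and 143, and GIMAP8 at 3.83, 37.2 and 4.65 against 37.5, 17.3 and 29.5. LOC101105810, which overlaps LOC101123290 in the table, was at 121, 132 and 39.9 against 73.1, 37.0 and 124. Members of this family are near copies of each other and reads can be split between overlapping or similar genes, so the counts per gene are uncertain. A difference in RNA level and a difference between ewes in gene copies, or in how well their alleles fit the reference, cannot be told apart in these counts. Outside lymphocytes the locus summed to 95.9 in the B lineage gate, 29.2 in the macrophage gate and 7.94 in the stromal gate.

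**Figure D5:**
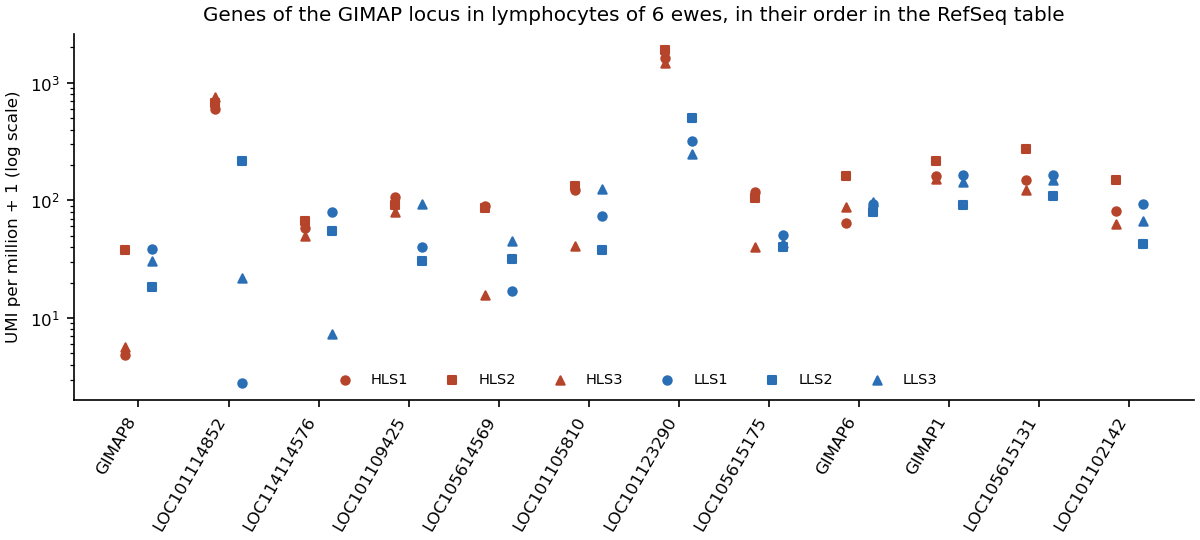
Genes of the GIMAP locus that averaged at least 10 CPM in lymphocytes, in their order in RefSeq, as CPM plus 1 on a log axis; each symbol is 1 ewe (red HLS, blue LLS). LOC101123290 and LOC101114852 lie above in all 3 HLS ewes, while GIMAP6, GIMAP1 and GIMAP8 overlap.

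By the rule for named genes, 4 more genes that were higher and 6 that were lower in HLS without overlap of the ewes had the smallest P, none past the adjusted threshold. LOC114109642 was at 582, 262 and 225 CPM in HLS and at 132, 86.3 and 56.8 in LLS, with a log2 fold change of 2.19 (SE 0.49, edgeR, adjusted P = 0.9995), and DESeq2 called it (adjusted P = 0.00358). HLS1 held its highest level, and without HLS1 the log2 fold change was 1.375. LOC101105609, between MCCD1 and POU5F1, and LOC101111694, between C20H6orf15 and MUC21, had log2 fold changes of 1.72 (1.13 without HLS1) and 1.59. LOC101111367 had 1.17. On the other side, LOC101120395 was at 5.74, 16.5 and 5.31 in HLS and at 73.1, 34.5 and 52.6 in LLS, with a log2 fold change of -2.60 (SE 0.48, edgeR, adjusted P = 0.527), and DESeq2 called it as well (adjusted P = 0.0173). LOC101119517, in the same interval between KYAT3 and LRRC8B, had -1.37. The deubiquitinase genes USP32 and USP37 had -1.62 and -1.14, the Nudix hydrolase gene NUDT6 -1.74 and LOC121817232 -0.83.

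USP32 was at 3.83, 8.26 and 7.31 CPM in HLS and at 23.2, 22.2 and 21.04 in LLS, and NUDT6 at 9.57, 6.19 and 5.98 against 28.5, 25.9 and 21.04. Each of these levels rests on few molecules, since 3 UMI correspond to 1.99 to 6.31 CPM. All 12 genes kept their direction in every alternative that tested them.

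No member of the gene lists passed the adjusted threshold. Their counts stand beside 2.42% of all genes under an unadjusted P of 0.05, 8.52% of all genes without overlap of the ewes (3.84% higher and 4.69% lower in HLS) and a median log2 fold change of all genes of -0.01. Of 19 T cell receptor complex and signalling genes tested outside the choice, none had an unadjusted P under 0.05 and the median was 0.08. For 1 of the 19 the ewes did not overlap: FYN was lower in every HLS ewe than in every LLS ewe after scaling (log2 fold change -0.39, unadjusted P = 0.104 by edgeR). Of 10 cytotoxic genes, none was under 0.05 and the median was 0.13. Of the 4 genes between MCP-3 and STXBP6, 1 was under 0.05 before adjustment, higher in HLS with overlap of the ewes, and the median was 0.19. Of 9 NK receptors and adaptors, CD244 was under 0.05 before adjustment (0.73, edgeR adjusted P = 0.9995), HCST did not overlap (0.47), and the median was 0.21. Of 17 homing genes, 1 did not overlap (CXCR3, 0.58) and the median was 0.05. Of 4 regulatory T genes, TNFRSF9 was under 0.05 before adjustment (0.89, edgeR adjusted P = 0.9995) and the median was -0.02. Of the 29 barcodes of the regulatory T-like sub-cluster, which had TNFRSF9 among its leading genes, 21 came from HLS3.

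Interferon-induced genes had the lowest median of the immune lists, -0.55 over 7 genes, 6 of them negative. MX1, an antiviral GTPase, was at 19.1, 10.3 and 12.6 CPM in HLS and at 12.5, 122 and 56.8 in LLS (log2 fold change -2.11, unadjusted P = 0.00654, edgeR). The groups overlapped, and LLS2, which gave most of sub-cluster 11, was the highest. Glycolysis genes were negative in 13 of 14 (median -0.12) and hormone and growth factor receptors in 6 of 6 (median -0.17). The 18 immediate early and heat shock genes had a median of 0.00. EGR1 was under 0.05 before adjustment and lower in every HLS ewe than in every LLS ewe after scaling (-0.64, edgeR adjusted P = 0.9995), and HSPH1 did not overlap either (-0.25), which makes 2 of 18 without overlap. The medians were -0.16 over 6 cytokines and chemokines, -0.17 over 7 naive and memory genes, -0.08 over 19 transcription factors, 0.09 over 10 genes of MHC class I presentation (1 without overlap, PSMB10, 0.44), -0.14 over 10 survival genes, 0.17 over 8 cell cycle genes and 0.04 over 6 iron genes, with no member of these lists under 0.05. The 5 stromal markers were positive in 5 of 5 (median 0.38), and their sum was highest in HLS3. The 2 perivascular markers tested were both negative (median -0.79). Scaling without TMM factors moved the median of all genes to -0.13, so the sign of a small list median is relative to the scaling.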

How the data were processed

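The authors mapped reads of 3′ v3 droplet libraries with Cell Ranger (STAR) and deposited UMI counts per gene and barcode for each ewe; the genome build is not given in the sources used here. Members and gene lists were chosen with earlier results of these data known. The deposited counts were summed per ewe over lymphocyte barcodes, filtered (filterByExpr), scaled (TMM) and tested with edgeR 4.0.16 in R 4.3.3, without covariates. DESeq2 1.42.0 was an alternative. For the 2 shares an exact permutation test (two-sided) was used, adjusted over both. Sub-clusters used 1000 variable genes, 20 components, 15 neighbours and leidenalg 0.10.2. The edgeR test was checked on simulated data. Named genes were up to 6 of highest level per list, the 20 of largest fold over other gates, up to 10 leading genes per sub-cluster, and, between HLS and LLS, all past an adjusted P of 0.05 or otherwise up to 6 per direction of smallest P without overlap. Of 30574 gene names, 25805 matched RefSeq symbols. Alternatives changed the limits, scaling, filter, thinning, doublets, resolution and ewes. No sequence was used here.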

Additional observations from a re-analysis of the deposited data

How the results depend on the processing

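The count of genes past the adjusted threshold between HLS and LLS in lymphocytes was 0 with edgeR and stayed 0 with RLE factors, CD3-detected barcodes only, a mitochondrial limit of 20% and a minimum of 2000 UMI. It was 3 with DESeq2 and 52 of 17966 with no low-count filter (21 higher and 31 lower in HLS). It was 1 with no TMM factors, thinned sums, at least 4 of 7 genes, called doublets removed, the replicate block and, chosen after seeing the data, without sub-cluster 8, each time LOC101123290. Leaving out 1 ewe gave 0 to 1, the single call being LOC101114852 without LLS2. With the replicate block, LOC101123290 had an adjusted P of 0.0466, but the numbers do not pair the ewes: deviations of same-numbered ewes correlated at 0.037, -0.127 and 0.063. The HLS minus LLS difference of the lymphocyte share ranged from -1.41 (without HLS3) to 1.21 percentage points when 1 ewe was left out and was -0.199 without LLS3. That of the CD3-undetected share ranged from -4.575 (without HLS3) to 0.964 (without HLS1) and was 0.501 with at least 4 of 7 genes. With 3 against 3 ewes or fewer, no alternative could pass the threshold for a share. Doubling the resolution gave 17 sub-clusters, halving it 9 and centring per ewe 10. The cause of these changes was not tested. Among the named genes, 189 of 204 alternative values kept their side of the threshold and 15 passed it.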
